A study of Mus musculus with 5 samples.

Results

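The WAVE complex and N-WASP genes are the 10 genes Wasf1, Wasf2, Wasf3, Nckap1, Abi1, Abi2, Cyfip1, Brk1, Wasl and Wipf1. They were chosen by name as the actin nucleation step under the GTPase Rac and matched by their GENCODE M21 symbols, which found 10 of 10 among the 54232 genes of the table. RNA was sequenced from primary myoblasts of wild type mice (WT, n = 3 samples) and of mice homozygous for the EID allele of Elmo2 (Elmo2 EID/EID, n = 2 samples). The cells were isolated from leg muscles of mice 6 to 8 weeks old on a mixed inbred background, selected with magnetic beads, and held in low serum for 72 h to differentiate. The EID allele is a knock-in present in every cell of the animal, and it changes an amino acid in the inhibitory domain through which ELMO2 folds shut. The labels do not say whether the replicates came from separate mice, so the p-values below measure the spread between these samples.

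WAVE and N-WASP proteins switch on the Arp2/3 complex, which starts a new actin filament on the side of an existing one. WAVE sits in a complex of CYFIP, NCKAP1, ABI, WAVE and BRK1 that keeps it inactive until Rac binds the CYFIP subunit, whereas N-WASP is opened by Cdc42 and held by its partner WIP, the product of Wipf1. ELMO2 and its partner DOCK1 load Rac with GTP, and branched actin at the contact between muscle cells is required for myoblasts to fuse into myotubes.

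All 10 genes were above the limit of detection, and none passed the test between genotypes. The recovered libraries held 35021856 to 49381544 reads, and 3 reads, taken as the floor of detection, were worth 2.65 to 3.73 normalized counts. Normalized counts are read counts divided by a size factor for each sample. The knock-in gene had lower counts in both Elmo2 EID/EID samples (Elmo2: 1441 and 1327) than in any WT sample (1539 to 1660), with an adjusted p of 0.226 from limma. The allele alters a codon, so the amount of this RNA is no check of the genotype labels. All 8 muscle markers exceeded 50 normalized counts in at least 1 sample, and their sums were 1618526 to 1881372 in WT and 1584779 to 1981942 in Elmo2 EID/EID samples. These are bulk libraries, in which fewer cells of a type and less RNA per cell cannot be told apart.

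The tests compared the genotypes on log2(normalized count + 1) with limma and Benjamini-Hochberg adjustment over 18156 genes. Among the 10 genes, 0 passed an adjusted p of 0.05, against a background of 2.23 percent of all genes tested. edgeR's quasi-likelihood test, with a background of 2.25 percent, also called 0 of the 10, as did the DESeq2 Wald test, with a background of 5.56 percent. At an unadjusted limma p under 0.05 there was 1 of the 10, Wipf1, against 15.2 percent of all genes. The groups did not overlap for Brk1 and Wipf1, 2 of 10 or 20 percent, where 32.6 percent of all genes were separated in this way. The log2 fold change, Elmo2 EID/EID over WT, was above 0 for 4 genes and below 0 for 6, with a median of -0.05 beside 0.01 over all genes tested. For 7 of the 10 it lay within 0.1 of 0.

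**Figure D1:**
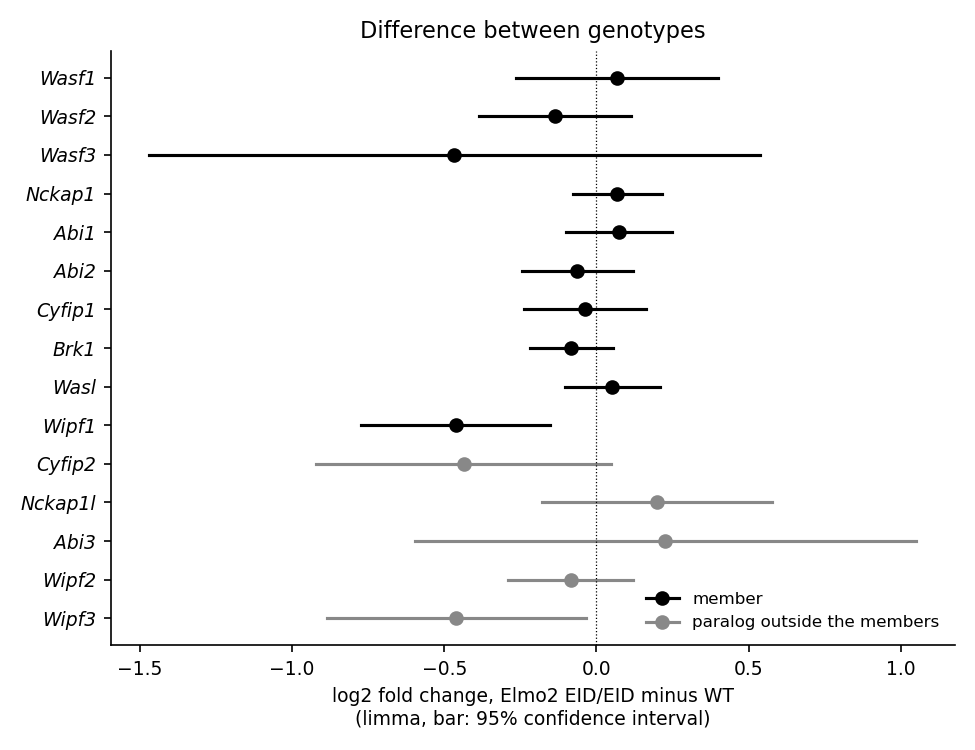
Log2 fold change of Elmo2 EID/EID over WT (x axis) with its 95% confidence interval from limma for the 10 WAVE and N-WASP genes (black) and their 5 tested paralogs (grey). The interval of Wipf1 runs from -0.77 to -0.15 and that of Wasf3, the widest, from -1.47 to 0.54.

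The 3 WAVE genes encode closely related proteins that end in the stretch that binds actin and Arp2/3. Reads of 50 bases can be assigned to one gene only where the paralogs differ, so the last 60 coding bases before the stop codon, which encode the acidic end that touches Arp2/3, are shown for each. The stretches were aligned codon by codon, and capitals mark the 40 bases that are the same in all 3 genes.
Wasf1: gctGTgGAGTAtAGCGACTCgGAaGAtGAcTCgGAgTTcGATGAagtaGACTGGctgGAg
Wasf2: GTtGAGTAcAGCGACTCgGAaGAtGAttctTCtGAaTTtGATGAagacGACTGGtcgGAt
Wasf3: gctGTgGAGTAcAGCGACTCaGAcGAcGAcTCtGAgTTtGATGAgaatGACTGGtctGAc
The Wasf1 stretch is chr10:40937741-40937800, that of Wasf2 chr4:133195812-133195871 and that of Wasf3 chr5:146470315-146470374, each on the plus strand of GRCm38 within 1 exon of the GENCODE M21 model. Of the 57 bases aligned in all 3 genes, 17 differed in at least 1 gene, and the longest run that all share there was 8 bases. The other 3 bases of each stretch had no partner in all the others, since Wasf2 holds a codon more than Wasf1 and Wasf3 there. Over the whole coding sequences, no pair of the 3 shared a run longer than 17 bases. No word of 50 bases from the Wasf transcripts compared (1 per gene) occurred in a GENCODE M21 transcript of another gene on either strand.

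Wasf2, the WAVE protein found in most cell types, was the main WAVE gene of these cells. Wasf2 (ENSMUSG00000028868, chr4:133130505-133199756) had 4732, 4665 and 3785 normalized counts in WT replicates 1 to 3 and 4023 and 3934 in Elmo2 EID/EID replicates 1 and 2, the order kept for all genes below. Gene positions are on GRCm38. The Elmo2 EID/EID values lay inside the WT range, since WT replicate 3 was the lowest of all 5. The log2 fold change was -0.14 (SE 0.11, 95% interval -0.39 to 0.11, adjusted p = 0.61 from limma), an interval of 0.765 to 1.08 times WT.

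Wasf1, the WAVE protein best known from neurons, was present at a lower level. Wasf1 (ENSMUSG00000019831, chr10:40883475-40938570) had 282.7, 297.2 and 233.7 normalized counts in WT and 271.9 and 294.0 in Elmo2 EID/EID. The groups overlapped, and the log2 fold change was 0.07 (SE 0.14, 95% interval -0.27 to 0.40, adjusted p = 0.87 from limma). Wasf3, also enriched in brain, was the lowest of the 10 genes. Wasf3 (ENSMUSG00000029636, chr5:146384985-146473615) had 56.5, 41.5 and 57.2 normalized counts in WT and 22.4 and 60.1 in Elmo2 EID/EID. Behind these values stood 64, 37 and 46 reads in WT and 25 and 67 reads in Elmo2 EID/EID. The Elmo2 EID/EID samples held both the lowest and the highest of the 5 values, and the log2 fold change of -0.47 (SE 0.42, adjusted p = 0.674 from limma) became 0.23 without EID replicate 1 and -1.16 without EID replicate 2.

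Cyfip1 and Nckap1 form the long scaffold of the complex, with CYFIP carrying the Rac binding sites. Cyfip1 (ENSMUSG00000030447, chr7:55841745-55932602) had 4214, 3702 and 3580 normalized counts in WT and 3646 and 3806 in Elmo2 EID/EID. The Elmo2 EID/EID samples fell between the WT samples, and the log2 fold change was -0.04 (SE 0.08, 95% interval -0.24 to 0.16, adjusted p = 0.883 from limma). Of the 50-base words of its transcript, 21.4 percent lie opposite other genes, mainly Nipa2, and reads were counted by strand. Nckap1 (ENSMUSG00000027002, chr2:80500512-80581380) had 9775, 9219 and 9232 normalized counts in WT and 9636 and 10089 in Elmo2 EID/EID. One Elmo2 EID/EID sample exceeded every WT sample and the other lay inside their range. Its log2 fold change was 0.07 (SE 0.06), with an interval of -0.08 to 0.21 or 0.947 to 1.16 times WT (adjusted p = 0.674 from limma).

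Abi1 and Abi2 encode the adaptor subunits that join WAVE to the scaffold. Abi1 (ENSMUSG00000058835, chr2:22940073-23040241) had 3071, 2884 and 3208 normalized counts in WT and 3338 and 3096 in Elmo2 EID/EID, and the groups overlapped. Its log2 fold change was 0.07 (SE 0.07, 95% interval -0.10 to 0.25, adjusted p = 0.701 from limma). Abi2 (ENSMUSG00000026782, chr1:60409619-60481158) had 1466, 1583 and 1428 normalized counts in WT and 1475 and 1381 in Elmo2 EID/EID, again with overlap. Its log2 fold change was -0.06 (SE 0.08, 95% interval -0.25 to 0.12, adjusted p = 0.768 from limma). The longest run of bases that the 2 coding sequences share was 23, shorter than a read.

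Brk1, also called HSPC300, is the smallest subunit and binds next to WAVE and ABI. Brk1 (ENSMUSG00000033940, chr6:113604772-113616951) had 3116, 3183 and 3109 normalized counts in WT and 2966 and 2960 in Elmo2 EID/EID. Both Elmo2 EID/EID samples were below every WT sample, with means of 2963 ± 3.83 (SD, n = 2) and 3136 ± 41.0 (SD, n = 3). The difference was small, a log2 fold change of -0.08 (SE 0.06, 95% interval -0.22 to 0.05), and did not pass the test (adjusted p = 0.564 from limma).

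Wasl encodes N-WASP, the ubiquitous relative of the blood cell protein WASP. Wasl (ENSMUSG00000029684, chr6:24613805-24665009) had 2095, 2027 and 2190 normalized counts in WT and 2210 and 2153 in Elmo2 EID/EID. The groups overlapped, and the log2 fold change was 0.05 (SE 0.07), with an interval of -0.10 to 0.21 or 0.931 to 1.16 times WT (adjusted p = 0.771 from limma).

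Wipf1, which encodes the N-WASP partner WIP, had the lowest p of the 10 genes. Wipf1 (ENSMUSG00000075284, chr2:73429610-73529734) had 751.9, 651.7 and 570.6 normalized counts in WT and 454.3 and 494.9 in Elmo2 EID/EID. Both Elmo2 EID/EID samples were below all 3 WT samples, at means of 474.6 ± 28.7 (SD, n = 2) and 658.1 ± 90.8 (SD, n = 3), a ratio of 0.721. The log2 fold change was -0.46 (SE 0.13, 95% interval -0.77 to -0.15). Its unadjusted limma p was 0.00986, and after adjustment over all genes it did not pass (adjusted p = 0.157 from limma, 0.14 from edgeR and 0.0552 from DESeq2). Over the other settings tried, the adjusted p of Wipf1 ranged from 0.0552 to 0.449 and its log2 fold change from -0.56 to -0.36. Summed counts of 7 pericyte and smooth muscle markers, highest for Abcc9, were also lower in both Elmo2 EID/EID samples (9956 to 10013) than in WT (10989 to 12819). Of the 7, 2 were called lower by limma, edgeR and DESeq2 alike, Rgs5 and Notch3 (backgrounds 2.23, 2.25 and 5.56 percent). Kcnj8 was at the floor in every sample. Summed counts of 9 endothelial markers were 169 to 882 in WT and 2298 to 3584 in Elmo2 EID/EID samples, and none was at the floor in every sample. Of the 9, limma and edgeR called 0 and DESeq2 called 3 higher, Tie1, Erg and Esam. The 5 called marker genes are named after their values were seen, as are Abcc9 above and Erbb3 below. Summed counts of 7 Schwann cell markers, highest for Erbb3, were 16163 to 17115 in WT and 15460 to 15683 in Elmo2 EID/EID samples. The groups did not overlap here either, and none of the 7 was at the floor in every sample or called by limma, edgeR or DESeq2. Of all single genes tested, 32.6 percent were separated in this way, and no such share was computed for sums of markers. For 7 fibro-adipogenic markers the sums overlapped, at 190 to 1063 in WT and 493 to 970 in Elmo2 EID/EID samples. None was called by limma, edgeR or DESeq2, and Pi16 and Lum were at the floor in every sample. The part of these cell types in the Wipf1 values was not tested.

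**Figure D2:**
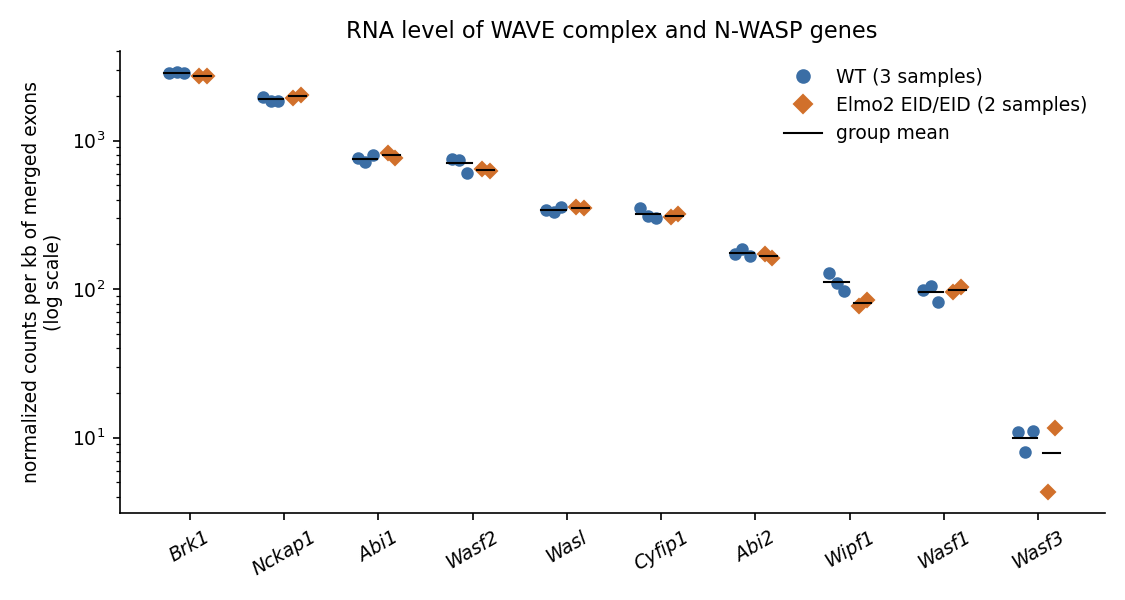
Level of each of the 10 genes in each sample, as normalized counts per kb of merged exons on a log axis (WT, 3 blue circles; Elmo2 EID/EID, 2 orange diamonds; lines, group means). Brk1 is highest at a mean of 2801 and Wasf3 lowest at 9.15, and the groups are apart for Brk1 and Wipf1.

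Levels of different genes were compared as normalized counts per kb of merged exons, averaged over the 5 samples. The lengths are those of GENCODE M21. An older Ensembl annotation is named in the methods for the counting, and the effect of this on levels and shares per kb was not tested. Brk1 was highest at 2801 per kb and Nckap1 next at 1932. Abi1 (774) and Wasf2 (676) followed and overlapped in their values over the samples. Wasl (346) and Cyfip1 (317) overlapped as well, and Abi2 stood alone at 172. Wipf1 (99.2) and Wasf1 (96.7) overlapped, and Wasf3 came last at 9.15. The order depended on the length used. With the longest transcript, Cyfip1 moved to rank 5 and Wasl to rank 6, and with the coding length Wasf2 moved to rank 2, Nckap1 to rank 3 and Abi1 to rank 4.

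Of 6 paralogs outside the 10 genes, 5 were tested and 0 were called by limma, edgeR or DESeq2, with 1 at an unadjusted limma p under 0.05, Wipf3. The backgrounds are those of the 10 genes, 2.23, 2.25, 5.56 and 15.2 percent in that order. Cyfip2, the other CYFIP subunit, had 978.1, 1552 and 1410 normalized counts in WT and 849.6 and 1067 in Elmo2 EID/EID. WT replicate 1 lay between the Elmo2 EID/EID samples, and the log2 fold change was -0.44 (SE 0.20, adjusted p = 0.379 from limma). Wipf3, a WIP relative, had 380.8, 273.7 and 287.1 normalized counts in WT and 203.9 and 249.2 in Elmo2 EID/EID, with no overlap. Its log2 fold change was -0.46 (SE 0.18, adjusted p = 0.289 from limma). Wipf2, the widely expressed relative, had 713.9, 719.0 and 692.4 in WT and 632.3 and 705.5 in Elmo2 EID/EID, overlapping, a log2 fold change of -0.08 (adjusted p = 0.714 from limma). So the 3 WIP genes all had values below 0 on this scale, and none passed the test.

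The blood cell forms were low. Nckap1l, also called Hem1, had 192.6 to 263.5 normalized counts in WT and 249.5 to 257.3 in Elmo2 EID/EID, with overlap and a log2 fold change of 0.20 (SE 0.16, adjusted p = 0.623 from limma). Abi3 had 80.4 to 146.7 in WT and 87.9 to 158.3 in Elmo2 EID/EID, also overlapping, and a log2 fold change of 0.23 (SE 0.35, adjusted p = 0.817 from limma). Of the 50-base words of Abi3, 69.3 percent lie opposite other genes, mainly Zfp652 at 2872 to 3416 normalized counts, and reads were counted by strand. Whether reads from the opposite strand reached the Abi3 or Cyfip1 counts was not tested. Was, which encodes WASP, was at or under 3 reads in every sample and was not tested. Summed counts of 8 haematopoietic and macrophage markers were 163 to 187 in WT and 167 to 177 in Elmo2 EID/EID samples. Only Itgam and Laptm5 among the 8 exceeded 50 normalized counts in any sample, and Ptprc was at the floor throughout.

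**Figure D3:**
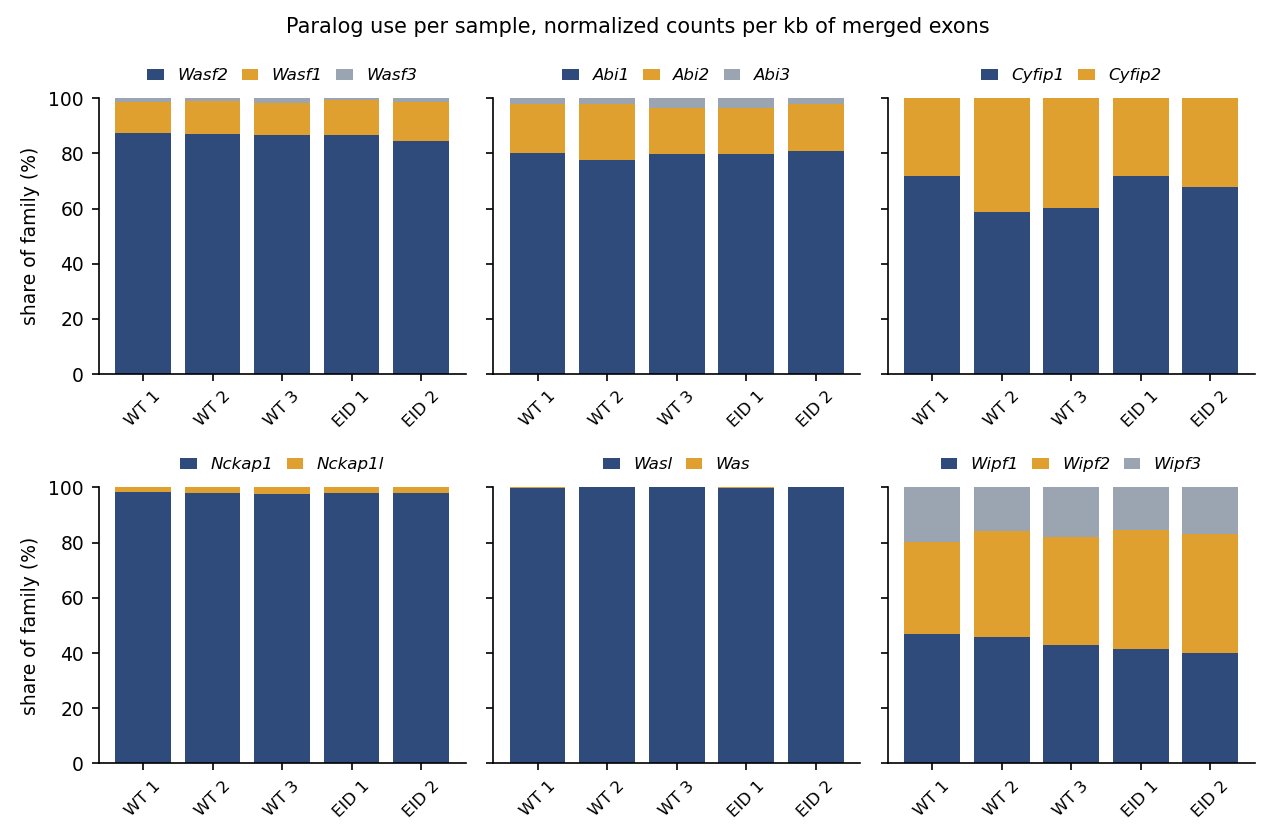
Share of each paralog in its family in every sample (y axis, percent of summed normalized counts per kb of merged exons), for the 6 families. Wasf2 holds 84.6 to 87.3 percent of the WAVE genes, and Cyfip1 varies between 58.6 and 71.9 percent among the WT samples alone.

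Paralog use was measured as the share of each gene in its family, on counts per kb of merged exons, and compared with a two-sided exact permutation test, in which the 5 samples can be assigned to the genotypes in 10 ways. The smallest exact permutation p is then 0.1, so none of the 6 families could pass a threshold of 0.05. Wasf2 made up 87.3, 86.9 and 86.7 percent of the WAVE genes in WT and 86.6 and 84.6 percent in Elmo2 EID/EID. The groups did not overlap, though their nearest samples were 86.7 and 86.6 percent, and the exact permutation p was 0.1 (0.6 after Benjamini-Hochberg adjustment over the 6 families). Wasf1 filled most of the rest, at 11.4 to 12.1 percent in WT and 12.8 to 13.9 percent in Elmo2 EID/EID, and Wasf3 stayed between 0.580 and 1.58 percent.

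Cyfip1 held 71.9, 58.6 and 60.2 percent of the CYFIP genes in WT and 71.9 and 68.0 percent in Elmo2 EID/EID. The means were 63.6 ± 7.27 (SD, 3 WT samples) and 69.9 ± 2.74 percent (SD, 2 Elmo2 EID/EID samples), and the groups overlapped, since WT replicate 1 was the highest of all (exact permutation p = 0.4, adjusted 0.7). The difference of 6.33 percentage points became 10.5 without WT replicate 1 and 3.86 without WT replicate 2. Abi1 held 77.6 to 80.0 percent in WT and 79.7 to 80.8 percent in Elmo2 EID/EID (exact permutation p = 0.6, adjusted 0.7), with Abi2 at 16.6 to 20.1 percent over all samples and Abi3 at 2.03 to 3.67 percent. Nckap1 took 97.7 to 98.4 percent beside Nckap1l, and Wasl took 99.8 percent or more beside Was (exact permutation p = 0.7 for each, adjusted 0.7). In contrast to these families, the WIP genes were shared among 3 members. Wipf1 held 46.8, 45.9 and 42.9 percent in WT and 41.3 and 40.1 percent in Elmo2 EID/EID, with no overlap (exact permutation p = 0.2, adjusted 0.6). Wipf2 held 33.5 to 39.2 percent in WT and 43.1 to 43.3 percent in Elmo2 EID/EID, and Wipf3 held 15.4 to 19.7 percent over all samples. The sizes of the shares depended on the length used. Averaged over the 5 samples, the Abi1 share was 76.4 percent by longest transcript, 66.1 percent by coding length and 66.4 percent on counts without a length. The same 3 values were 77.1, 76.5 and 76.5 percent for Cyfip1, 43.2, 35.3 and 37.3 percent for Wipf1, and 87.1, 93.5 and 92.9 percent for Wasf2.

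The WAVE complex takes 1 protein from each of 5 positions, so the paralogs of each position were summed per kb. The BRK1 position had 2864 ± 37.5 in WT and 2706 ± 3.50 in Elmo2 EID/EID, and the NCKAP1 position 1933 ± 59.9 and 2029 ± 65.5. The ABI position had 957 ± 38.7 and 995 ± 62.2, and the WAVE position 807 ± 94.9 and 743 ± 0.575. The CYFIP position was the lowest at 506 ± 20.1 and 447 ± 31.1 (SD, 3 WT and 2 Elmo2 EID/EID samples throughout). Between genotypes, the CYFIP and BRK1 sums did not overlap, at ratios of 0.884 and 0.945. Of all single genes tested, 32.6 percent were separated in this way. Both sums had the smallest exact permutation p this design allows, 0.1, and an adjusted value of 0.25 over the 5 positions. The CYFIP ratio was 0.912 by longest transcript and 0.910 by coding length. The other 3 positions overlapped, with adjusted values of 0.5 in the same exact permutation test. These sums are RNA and say nothing of how much protein each position received, and their order changed with the length used. By coding length the NCKAP1 position was below the ABI position in both genotypes, and the WAVE position was above NCKAP1 in WT (3143 and 2831) but below it in Elmo2 EID/EID (2864 and 2973).

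Downstream of these genes, the Arp2/3 complex is the nucleator itself, and 0 of its 10 genes were called by limma, edgeR or DESeq2, with 0 at an unadjusted limma p under 0.05. Their log2 fold changes ran from -0.14 for Arpc3 to 0.02 for Arpc5 in the main fit, with a median of -0.06. Over the settings tried, Arpc3 ranged from -0.20 to -0.10 and Arpc5 from -0.07 to 0.17. Actr3b, named here after its values were seen, ranged most widely, from -0.40 to 0.25. The subunit gene with the highest count, Arpc2, reached a mean of 10322 ± 310 normalized counts over 3 WT samples and 9445 ± 316 over 2 Elmo2 EID/EID samples (SD), with no overlap. Its log2 fold change was -0.13 (SE 0.06, adjusted p = 0.387 from limma).

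Upstream, the inputs are the GTPases and adaptors that open WAVE or N-WASP, and 0 of the 13 tested genes were called by limma or edgeR, with 2 at an unadjusted limma p under 0.05, Baiap2 and Nck2, a share near the 15.2 percent of all genes. Rac2, the blood cell Rac, was at the floor and was the only 1 of the 14 not tested. The median log2 fold change of the 13 was -0.06. Cdc42, the activator of N-WASP, had the highest fold change of the list and the highest mean count over all 5 samples, with 19048 ± 277 normalized counts over 3 WT samples and 20638 ± 715 over 2 Elmo2 EID/EID samples (SD) and no overlap. Its log2 fold change was 0.12 (SE 0.06, adjusted p = 0.429 from limma). In the WT samples alone the count of Rhoq, named here after its values were seen, was higher at 20219. Baiap2, which encodes IRSp53, a link from Rac to WAVE2, was lowest at -0.50 (SE 0.19, adjusted p = 0.29 from limma), with groups that overlapped, and ranged from -0.72 to -0.28 over the settings tried. Rac3, at 12.5 to 28.7 normalized counts and also named after its values were seen, tied with it at -0.50 (SE 0.38, adjusted p = 0.608 from limma) and ranged from -1.07 to 0.07. DESeq2, with its background of 5.56 percent, called 1 of the 13, the adaptor gene Nck2, named here after its values were seen. Nck2 had 956.0, 968.0 and 1037 normalized counts in WT and 770.0 and 676.8 in Elmo2 EID/EID, a log2 fold change of -0.45 with an adjusted p of 0.0625 from limma and 0.00455 from DESeq2.

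Among the brakes and branch factors, which oppose Arp2/3 or hold and undo its branches, 9 of 10 genes were tested and 0 were called by limma or edgeR, with 1 at an unadjusted limma p under 0.05, Coro1c, where the background is again 15.2 percent. Gmfg, under 5 normalized counts in every sample, was not tested. The median log2 fold change was 0.01. Coro1c, a coronin that takes branches apart, had 2174, 1781 and 1810 normalized counts in WT and 1384 and 1364 in Elmo2 EID/EID, and was the lowest of the list at -0.48 (SE 0.10). It did not pass in limma (adjusted p = 0.071) and passed in DESeq2 (adjusted p = 0.00313), the only gene of the list to do so, beside 5.56 percent of all genes. Hcls1, a cortactin relative of blood cells, had the highest fold change at 0.54 (SE 0.24, adjusted p = 0.352 from limma), at 33.7 to 42.3 normalized counts in WT and 49.2 to 59.2 in Elmo2 EID/EID. Ctnna1, which encodes alpha-catenin and had the highest count of the list, differed by 0.04 (adjusted p = 0.881 from limma). It ranged from -0.03 to 0.11 over the settings tried.

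The remaining Arp2/3 activators work on endosomes and other inner membranes, and 1 of the 7 genes of WASH, WHAMM and JMY was called by each of limma, edgeR and DESeq2, beside backgrounds of 2.23, 2.25 and 5.56 percent of all genes. Washc5, which encodes the strumpellin subunit of the WASH complex, had 3841, 3901 and 3965 normalized counts in WT and 5195 and 4828 in Elmo2 EID/EID. Both Elmo2 EID/EID samples were above every WT sample, and the ratio of means was 1.28. Washc5 rose by a log2 fold change of 0.36 (SE 0.06, 95% interval 0.21 to 0.51), which ranged from 0.31 to 0.41 over the settings tried. Its adjusted p was 0.0398 from limma, 0.0385 from edgeR and 2.0e-04 from DESeq2. The limma call was lost with any 1 of the 5 samples left out (adjusted p 0.071 to 0.192), without the variance trend, without the filter on low values and with the replicate number as a block. The lowest of the 7 was Washc3 at -0.06 (adjusted p = 0.752 from limma), which ranged from -0.09 to -0.03 over the settings tried. The median was 0.06.

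**Figure D4:**
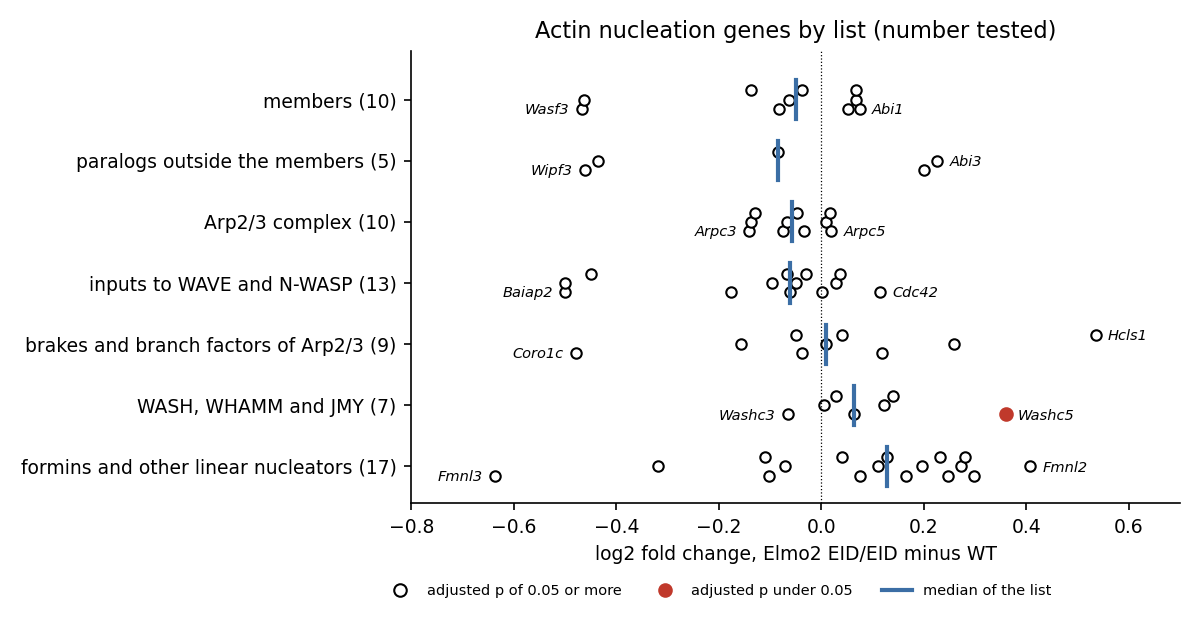
Log2 fold change of Elmo2 EID/EID over WT (x axis) for every tested gene of 7 lists of actin nucleation genes (open circles, not called; red circle, called by limma; blue bars, list medians), with the lowest and highest gene of each list named. The 10 Arp2/3 genes lie between -0.14 and 0.02, and Washc5 is the only called gene.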

How the data were processed

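Poly-A RNA libraries with strand information were sequenced in pairs of 50 bases. Per the submitters' processing notes and the paper's methods, the authors checked reads with FastQC 0.11.5, aligned them to GRCm38 with STAR 2.5.1b, counted uniquely mapped reads on the reverse strand with featureCounts 1.4.6 and scaled them. The deposited signal of a gene is its count over the size factor that DESeq2 1.34.0 gave the sample. Reads were recovered by dividing by the smallest positive value of each sample, and 100 percent of values were whole within 0.01. The p-values rest on limma 3.58.1 (lmFit and eBayes with trend, two-sided, no block) on log2(normalized count + 1), for genes that reached 5 normalized counts in 1 or more samples. This scale understates changes of low genes. It called 404 of 18156 genes. On recovered reads, edgeR 4.0.16 called 408 and DESeq2 1.42.0 called 961. Replicates of a group differed by more than sampling noise (chi-square per degree of freedom 26.6 to 37.8). The script was tested on simulated data.

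The members, lists and tests were chosen with earlier results of these data known. The text names the members, their paralogs, Elmo2 and, in each other list, every called gene and those with the highest and lowest fold change and the highest mean. Lengths, positions and sequences came from GENCODE M21 (54165 of the 54232 identifiers named), a later gene model than the Ensembl release the methods name for counting. R 4.3.3, Python 3.11.15, scipy 1.17.1 and pandas 2.3.3 were used.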

Additional observations from a re-analysis of the deposited data

How the results depend on the processing

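In all 16 alternatives, 0 of the 10 WAVE and N-WASP genes, 0 of their paralogs and 0 Arp2/3 genes were called. Over all genes, the 404 limma calls became 961 with DESeq2, 144 without the variance trend, 155 without the filter on low values and 34 to 335 with 1 sample left out, lowest without EID replicate 2. The higher share of calls was 48.8 percent and became 67.4 percent without the trend, 63.2 percent without the filter, 63.4 percent without WT replicate 1, 64.0 percent without WT replicate 2 and 42.9 percent with DESeq2. The labels do not say whether an equal replicate number marks anything shared across genotypes. The differences between replicates 1 and 2 correlated across genotypes at r = -0.27 over 12298 genes, and 1 difference per genotype cannot decide this. With the replicate number as a block, which leaves WT replicate 3 out of the contrast, 224 genes were called, 0 of the 10 among them. The block turned Wasf1 to -0.036. DESeq2 called 1 input gene, 1 brake gene and 3 formin genes, and quantile normalization 1 formin gene. The 1 call among WASH, WHAMM and JMY became 0 without the trend, without the filter, with the block, and with each sample left out (0 to 0). With 1 sample left out, Wasf1 ranged from -0.036 to 0.14, Wasf3 from -1.16 to 0.23, Cyfip1 from -0.084 to 0.033 and Abi3 from -0.19 to 0.65 on the log2 scale. Values that moved by over 1.5 times, kept their sign and were not called are those of Wasf2 (-0.24 to -0.079), Nckap1 (0.035 to 0.10), Abi1 (0.021 to 0.13), Abi2 (-0.11 to -0.016), Wasl (0.026 to 0.082), Cyfip2 (-0.64 to -0.27), Nckap1l (0.10 to 0.33) and Wipf2 (-0.16 to -0.0057). The Wasf2 share difference of -1.39 percentage points became -0.672 on normalized counts and -0.591 per coding length and ranged from -2.39 to -0.384 with 1 sample left out. That of Wasl ranged from -0.173 to 0.0364. The cause of the other shifts was not tested. With 2 Elmo2 EID/EID samples, leaving out 1 tests the other alone against the WT spread.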

Other observations

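Formins and related proteins build unbranched filaments without Arp2/3, and of 17 such genes 0 were called by limma or edgeR, with 3 at an unadjusted limma p under 0.05, a share near the 15.2 percent of all genes. The log2 fold changes were above 0 for 12 and below 0 for 5, with a median of 0.13. Fmnl3, a formin of filopodia and vessels, was the lowest at -0.64 (SE 0.12, adjusted p = 0.0545 from limma), with 1104, 1072 and 994.5 normalized counts in WT and 770.9 and 598.0 in Elmo2 EID/EID. Fmnl2, its close relative and a formin of the leading edge, was the highest at 0.41 (SE 0.08, adjusted p = 0.0655 from limma), with 799.6, 817.7 and 791.8 normalized counts in WT and 1003 and 1130 in Elmo2 EID/EID. The groups did not overlap for either. DESeq2, which called 5.56 percent of all genes, called both (adjusted p = 7.7e-04 and 0.00639) and Spire1, named here after its values were seen, at 0.23 (adjusted p = 0.114 from limma and 0.0277 from DESeq2). Lmod2, a leiomodin of the sarcomere, had the highest mean and a log2 fold change of 0.27 (adjusted p = 0.371 from limma).

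Within 2 Mb of Wasf2 on chromosome 4, 7 of the 71 tested protein-coding genes were called by limma (Wdtc1, Sfn, Rps6ka1, Hmgn2, Extl1, Stmn1 and Mtfr1l, named after their values were seen), beside 2.04 percent of all tested protein-coding genes. Within the same distance of Wasf1 it was 1 of 34, Scml4, and for each of the other 8 genes 0.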
